A study of Mus musculus with 20 samples.

Results

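Lysosomes are acidic organelles in which proteins, glycans and lipids delivered by endocytosis, autophagy and mitophagy are broken down. Their lumen holds proteases, glycosidases and lipases. Their membrane holds heavily glycosylated structural proteins, transporters, ion channels and the V-ATPase, a proton pump that keeps the lumen acidic. Tfeb is a transcription factor that enters the nucleus when lysosomes sense starvation or stress and raises the expression of many lysosomal genes. In cardiomyocytes, which divide rarely, lysosomes take up worn mitochondria, and inherited loss of LAMP2 or of acid hydrolases is known to damage the heart.

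The 36 genes described here encode lysosomal enzymes, their cofactors, lysosomal membrane proteins and 4 parts of the proton pump, together with Tfeb. The rule is a list of symbols and uses no measured value, but the list was drawn up with earlier results of these data known. The genes were found in the count data through their Ensembl identifiers. All 36 of the 36 listed genes were present among 15956 genes in all. All 36 passed the filter on low counts, and 35 had a base mean, the mean normalized count over all libraries, above 50. Gla, the α-galactosidase, was the exception with a base mean of 15.2. Tfeb is neither an enzyme nor a membrane protein, and it stands in the list as a known regulator of many lysosomal genes.

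Left ventricles came from 20 mice on 4 diets, 5 mice for each diet. The normal protein (NP) diet was the control, and the low protein (LP) diet held less casein, its protein source. The high-fat (HF) diet raised the fat content at the casein content of NP, and the HF + LP diet combined more fat with less casein. All mice were male according to the study's methods. Their labeled age was 18 months, whereas the methods give a younger age at tissue collection. No genotype or strain is given in the sources used here, and the labels name no transgene and no drug. Labeled body weights had a mean of 43.0 ± 7.82 g for NP mice, 32.6 ± 2.69 g for LP mice, 58.9 ± 1.76 g for HF mice and 48.6 ± 5.93 g for HF + LP mice (SD, n = 5). The study stained LAMP2 in heart sections to follow lysosomes and mitochondria, and the comparisons below ask whether the transcripts of lysosomal genes differed with dietary fat and protein.

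Libraries were made with the QuantSeq method, which reads the 3′ end of polyadenylated RNA, so that long and short transcripts yield similar counts per molecule. Total counts lay between 12559607 and 23331907 per mouse. Levels are given as CPM, counts scaled to a common library size, after TMM correction for differences in library composition. For each diet, values by mouse are listed in the order of the animal numbers, which were 3, 4, 5, 6 and 8 in NP, 2, 5, 13, 15 and 20 in LP, and 1, 2, 3, 4 and 5 in both HF and HF + LP. The label of LP 5 adds the words sample 2, whose meaning is not given. Markers fit heart muscle in all libraries, with 10 cardiomyocyte markers summing to between 40608 and 69699 CPM. Several libraries also held atrial transcripts, although the tissue is labeled as ventricle. The sum of 4 atrial markers ranged from 57.2 to 14483 CPM and exceeded 3000 CPM in 6 libraries, namely NP 5, LP 13, LP 15, HF 1, HF 3 and HF + LP 3. LP 13 also had the highest sum of 6 adipocyte markers, 304 CPM, and the lowest correlation with its group, a median r of 0.908 against 0.944 to 0.979 in the other 19 libraries. LP 20 had 548 CPM of T and B cell markers, compared to 7.19 to 38.4 CPM elsewhere. In bulk tissue, fewer cells of a type and less RNA per cell cannot be told apart.

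The known binding motif of Tfeb is built on the E-box CACGTG, and its preferred form contains the 8 bases TCACGTGA, which read the same on both strands. Promoter sequences of 250 bases before and 50 bases from the transcription start were taken from RefSeq on GRCm38.p6. Entries matched 31 of the 36 genes. Asah1, Atp6v1h, Ctsb, Ctsh and Npc1 had no entry in that table. TCACGTGA occurred in the promoters of 7 of the 31 genes (22.6%), compared to 304 of 27025 genes in all (1.12%) and 11 of 106 other genes of the lysosomal system (10.4%). Neither 14 macrophage markers nor 10 cardiomyocyte markers with an entry held it. The shorter CACGTG, which lies inside the longer motif, occurred in 13 of the 31 genes (41.9%), compared to 2187 of 27025 (8.09%). Glb1, Lamp1, Lgmn, Naglu, Sgsh and Ctsl held the shorter motif without the longer one. These are matches of letters within 300 bases and not measured binding sites.

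The 9 occurrences of the longer motif, in 7 of the 31 genes, are shown with 11 bases on each side. The rule for the list did not use the motif. Tfeb is known to raise many lysosomal genes, so the excess over all genes is no independent result. Sequences run 5′ to 3′ on the strand of the gene, capitals mark TCACGTGA, and positions count from the RefSeq transcription start at 1, with no position 0.
Atp6v0d1, chr8:105566050-105566079, minus strand, motif at −4 to 4: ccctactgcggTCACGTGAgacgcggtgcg
Atp6v1a, chr16:44139373-44139402, minus strand, motif at −132 to −125: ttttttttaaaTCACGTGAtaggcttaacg
Cln3, chr7:126583340-126583369, minus strand, motif at −122 to −115: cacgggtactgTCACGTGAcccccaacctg
Ctsa, chr2:164833749-164833778, plus strand, motif at −13 to −6: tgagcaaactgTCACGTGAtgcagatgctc
Ctsa, chr2:164833766-164833795, plus strand, motif at 5 to 12: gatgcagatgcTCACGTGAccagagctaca
Ctsd, chr7:142387908-142387937, minus strand, motif at −99 to −92: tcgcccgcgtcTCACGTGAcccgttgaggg
Gla, chrX:134601215-134601244, minus strand, motif at −228 to −221: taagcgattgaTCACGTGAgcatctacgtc
Gla, chrX:134601182-134601211, minus strand, motif at −195 to −188: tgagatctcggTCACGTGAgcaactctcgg
Mcoln1, chr8:3500462-3500491, plus strand, motif at −46 to −39: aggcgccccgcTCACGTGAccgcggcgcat

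Both Ctsa, a protease that also protects other lysosomal enzymes, and Gla held the motif at 2 places. In Atp6v0d1, a subunit of the proton pump, the motif spanned the RefSeq start itself. Ctsd, the most abundant member, carried it 92 to 99 bases upstream of its RefSeq start. GENCODE M21 sets other starts for these genes, with spans that reach to the outermost transcript. By those spans, the motif lay within the gene for Atp6v1a, Cln3, Ctsa, Ctsd and Mcoln1, and outside it for Atp6v0d1 and Gla. The 7 genes with the motif differed in what they encode, with 2 proteins of the proton pump, 2 proteases, 1 glycosidase and 2 membrane proteins. Their median log2 fold change was 0.13 in HF against NP, compared to 0.07 in the 24 genes with a promoter entry but without the motif. The medians were −0.06 and −0.07 in HF + LP against HF, in LP against NP 0.01 and 0.02, and in HF + LP against LP −0.05 and −0.04.

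Levels of the 36 genes ranged widely. Because QuantSeq gives roughly 1 fragment for each transcript, CPM can be compared between genes on this scale, although priming and mapping can differ from gene to gene. Ctsd, the aspartic protease cathepsin D, had the highest mean, 832 CPM over 20 mice. Psap, the precursor of the saposins that present sphingolipids to their hydrolases, followed with 481 CPM, and Lamp1, a structural membrane glycoprotein, with 290.1 CPM. Together these 3 genes made up 49.8% of the summed CPM of the 36 genes. With Scarb2, Ctsb and Lamp2, the share of the top 6 was 68.5%. The lowest means were those of Gla with 0.928 CPM, Ctsk with 3.42 CPM and Mcoln1 with 3.92 CPM. Ctsd ranked above 99.4% of the 13991 genes tested, and Gla above 9.53%.

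**Figure D1:**
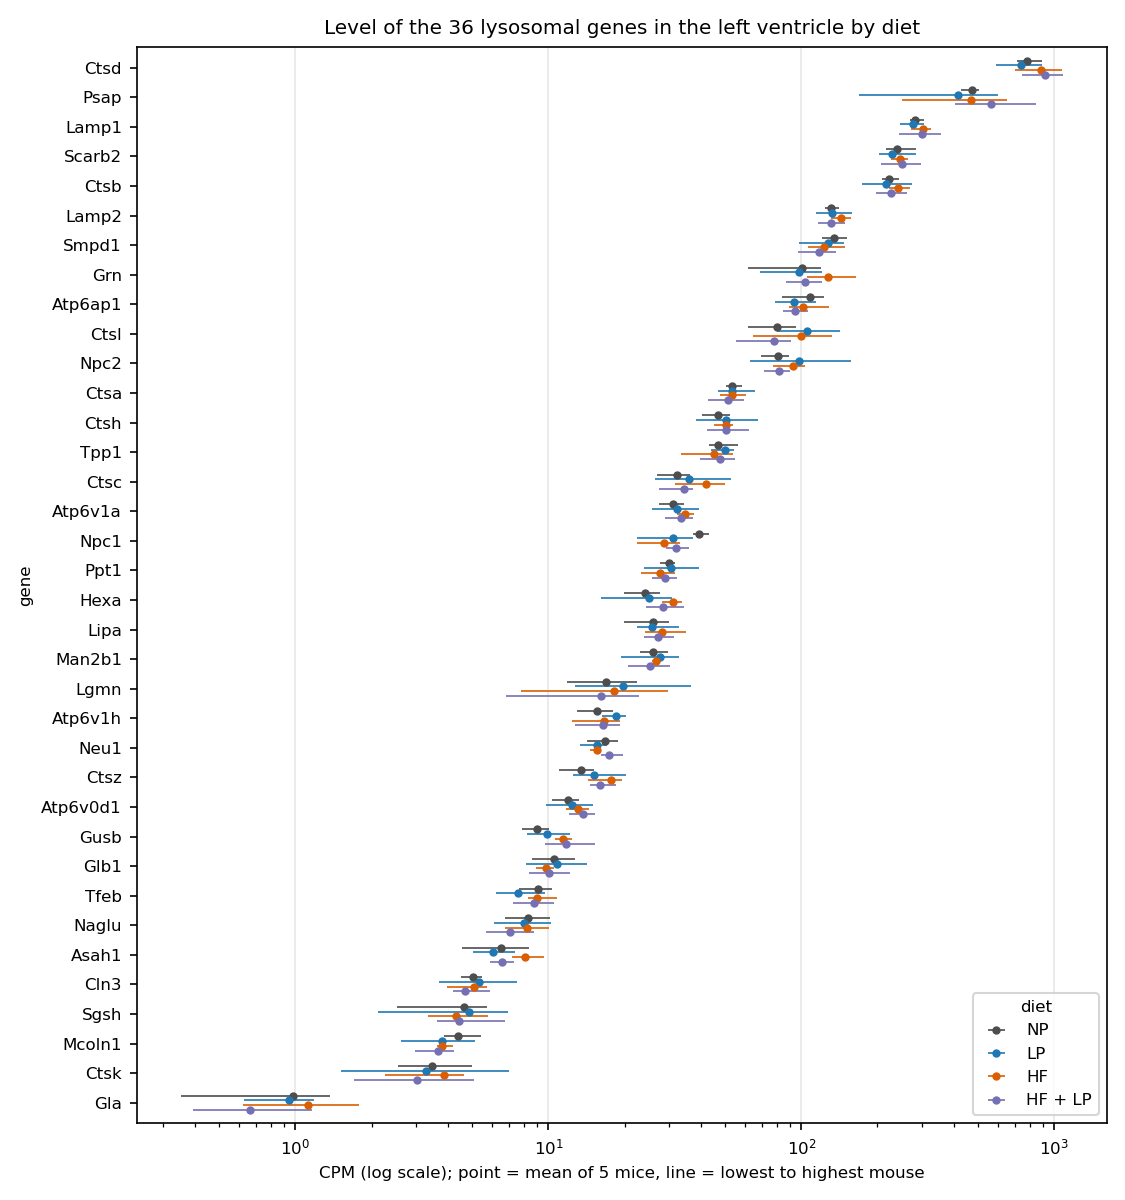
Mean level of each of the 36 genes by diet, in CPM on a log scale, with 5 mice per point and a line from the lowest to the highest mouse. The order of the genes runs from Ctsd at 832 CPM to Gla at 0.928 CPM, and for most genes the lines of the 4 diets overlap.

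By role, 10 cathepsins and other proteases held 42.6% of the summed level, and 7 membrane proteins, channels and cholesterol exporters 24.7%. A group of 6 that joins lipid-degrading hydrolases with Psap and Grn held 24.1%. In this group Psap had a mean of 481 CPM and Grn of 107 CPM. The 4 parts of the proton pump held 5.03%, the 8 glycan-degrading hydrolases 3.23%, and Tfeb 0.268%. The summed level of all 36 genes was 3125 ± 159 CPM in NP, 3035 ± 223 CPM in LP, 3347 ± 217 CPM in HF and 3365 ± 385 CPM in HF + LP (SD, n = 5). The ranges of all 4 groups overlapped, from 2925 to 3299.9 CPM in NP, from 2816 to 3319 CPM in LP, from 3120.1 to 3620.4 CPM in HF and from 2850 to 3803 CPM in HF + LP.

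The spread between mice on the same diet was measured next. The SD of log2 CPM within groups had a median of 0.211 over the 35 genes with a base mean above 50, compared to 0.251 over all 10078 such genes tested. The steadiest were Neu1, the sialidase, with 0.127, Lamp1 with 0.141 and Lamp2 with 0.147. The most variable were Lgmn, the asparaginyl endopeptidase legumain, with 0.623, Ctsk with 0.584 and Psap with 0.500 on the same scale. Sgsh, which removes sulfate from heparan sulfate, and Ctsl followed with 0.461 and 0.334.

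Differential expression was tested with edgeR's quasi-likelihood test on all 13991 genes, with Benjamini-Hochberg adjustment over all of them. Calls required an adjusted p under 0.01 together with a base mean above 50, the thresholds that the study's methods name. None of the 36 genes was called in any of the 4 comparisons of diets or in the interaction of fat and protein content by edgeR, and none by DESeq2. Counts at an unadjusted p under 0.05 and a base mean above 50 are given beside each comparison as a description, together with the share of all 10078 genes that reached the same threshold.

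In the hearts of HF mice, compared to NP, Npc1 was lower while Ctsz, Gusb, Hexa and Ctsc were higher at an unadjusted p under 0.05. The 4 higher genes encode soluble enzymes, and Npc1 encodes the membrane protein that exports cholesterol from lysosomes. None of these differences passed the adjusted threshold. Over all genes, 0.367% were called, 5.35% were higher and 7.91% were lower at the unadjusted threshold, so that 4 higher and 1 lower of 35 is to be read against about these shares. Groups of mice did not overlap for 3 of the 35 genes, Gusb and Hexa upward and Npc1 downward, compared to 6.39% of all genes in either direction. DESeq2 gave 6 genes at an unadjusted p under 0.05 in this comparison, adding Asah1, and also called none.

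Npc1 is located at chr18:12189692-12236400, minus strand (GRCm38, GENCODE M21). Its level by mouse was 43.0, 37.6, 39.2, 37.3 and 40.5 CPM in NP, and 22.5, 29.3, 31.8, 34.2 and 37.5 CPM in LP. In the high-fat groups it was 33.0, 33.0, 27.0, 27.6 and 22.5 CPM in HF, and 35.8, 29.3, 29.2, 30.8 and 34.9 CPM in HF + LP. The 5 HF mice all lay below the lowest NP mouse, and so did the 5 HF + LP mice, while LP 20 lay above it. Group means were 39.5 ± 2.34 CPM in NP and 28.6 ± 4.47 CPM in HF (SD, n = 5). The log2 fold change of HF against NP was −0.47 (SE 0.13, unadjusted p = 0.00142, adjusted p = 0.0704) by edgeR's quasi-likelihood test, the smallest adjusted p of any of the 36 genes in any comparison. Its 95% interval ran from −0.73 to −0.20, and DESeq2 gave an adjusted p of 0.0234. Rmc1, on the opposite strand, overlaps the last bases of Npc1, and the counting program and its strand setting are not given in the sources used here. Rmc1 had a base mean of 52.1 against 538 for Npc1, and a log2 fold change of −0.08 in the same comparison (unadjusted p = 0.872, adjusted p = 0.976 by edgeR).

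Ctsz, cathepsin Z, is a carboxypeptidase encoded at chr2:174427493-174439039, minus strand. Its level was 13.7, 11.04, 14.3, 15.2 and 13.0 CPM in NP, and 12.5, 13.3, 13.7, 16.04 and 20.3 CPM in LP. With high fat it was 17.2, 19.5, 14.4, 18.3 and 19.3 CPM in HF, and 14.5, 14.7, 15.6, 18.5 and 16.2 CPM in HF + LP. Only HF 3, at 14.4 CPM, lay within the NP range, whose highest mouse was NP 6 at 15.2 CPM. The log2 fold change of HF against NP was 0.40 (SE 0.13, unadjusted p = 0.00693, adjusted p = 0.152) with edgeR. The 3′ end of Ctsz overlaps Nelfcd on the opposite strand, which had a log2 fold change of −0.19 (unadjusted p = 0.568, adjusted p = 0.882 by edgeR).

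Gusb, β-glucuronidase, cleaves glucuronic acid from glycosaminoglycans and lies at chr5:129989011-130003049, minus strand. Its level was 8.11, 7.88, 9.12, 10.1 and 9.73 CPM in NP, and 8.23, 9.13, 9.34, 10.6 and 12.2 CPM in LP. On the high-fat diets it was 10.6, 10.7, 12.4, 10.99 and 12.4 CPM in HF, and 10.3, 15.2, 11.2, 12.3 and 9.72 CPM in HF + LP. The lowest HF mouse, at 10.6 CPM, lay above the highest NP mouse, at 10.1 CPM. The fitted difference between HF and NP was 0.35 (SE 0.13, unadjusted p = 0.0150, adjusted p = 0.230) on the log2 scale with edgeR.

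Hexa, the α subunit of β-hexosaminidase, which degrades GM2 ganglioside, lies at chr9:59539540-59565109, plus strand. Its level was 23.2, 23.8, 25.4, 27.6 and 20.0 CPM in NP, and 30.8, 27.1, 16.1, 26.3 and 24.8 CPM in LP. In the hearts of fat-fed mice it was 29.5, 32.1, 28.2, 31.5 and 33.7 CPM in HF, and 25.4, 24.4, 30.9, 34.5 and 26.5 CPM in HF + LP. HF mice lay between 28.2 and 33.7 CPM and NP mice between 20.0 and 27.6 CPM, so that the groups did not overlap, and HF + LP mice reached into both. The log2 fold change was 0.37 (SE 0.14, unadjusted p = 0.0170, adjusted p = 0.241) by edgeR. The fourth higher gene, Ctsc, or dipeptidyl peptidase 1, activates serine proteases of immune cells, and its mean was 41.9 ± 8.17 CPM in HF against 32.2 ± 3.89 CPM in NP (SD, n = 5). The ranges of Ctsc overlapped, and its log2 fold change was 0.38 (SE 0.17, unadjusted p = 0.0307, adjusted p = 0.312) with edgeR. The unadjusted p of Ctsc lay between 0.0533 and 0.0872 when NP 3, NP 5, NP 6, HF 3, HF 4 or HF 5 was left out of the edgeR fit, and without HF 5 its log2 fold change was 0.31.

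**Figure D2:**
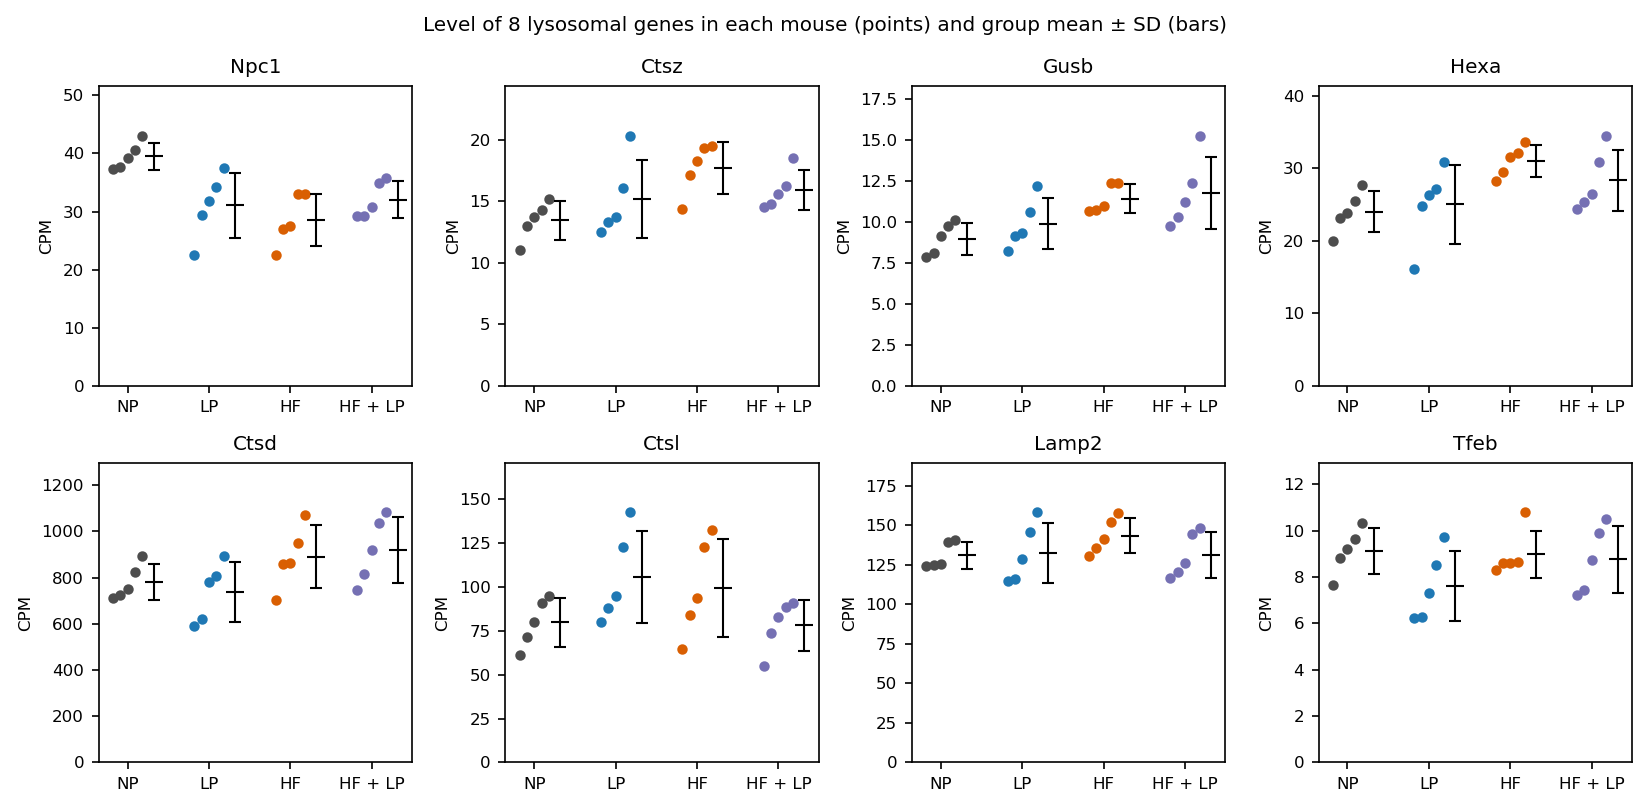
Level of 8 genes in each mouse, in CPM, with points for mice sorted by value within a diet and bars for the group mean ± SD (n = 5). HF mice lie below all NP mice for Npc1 and above all NP mice for Gusb and Hexa, while the diets overlap for Ctsd, Ctsl, Lamp2 and Tfeb.

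Over the 36 genes in HF against NP, 23 had a log2 fold change above 0 and 13 below. The median was 0.10, compared to −0.00 over all 13991 genes tested. Proteases had the highest median among the roles, 0.15, with 8 of 10 above 0. The proton pump had a median of 0.12, with Atp6v1a at 0.16, Atp6v0d1 at 0.13, Atp6v1h at 0.10 and Atp6ap1 at −0.09. Among lipid-degrading enzymes the acid ceramidase Asah1 had 0.31 (SE 0.15), the acid lipase Lipa 0.11 (SE 0.14), the acid sphingomyelinase Smpd1 −0.14 (SE 0.12) and the palmitoyl thioesterase Ppt1 −0.13 (SE 0.12) on the log2 scale. When single mice were left out, Asah1 lay between 0.21 and 0.42 and Lipa between 0.02 and 0.17. Smpd1 then lay between −0.22 and −0.09 and Ppt1 between −0.18 and −0.07. Grn, the precursor of granulins, had 0.33 (SE 0.18), and 0.20 without NP 3, its lowest mouse. Of the glycan-degrading hydrolases other than Gusb and Hexa, all 6 differed by at most 0.15 in either direction, with Gla the farthest at 0.15 (SE 0.37) and Man2b1, the lysosomal α-mannosidase, at 0.04 (SE 0.13). For 23 of the 36 genes the 95% interval of the fold change lay within 1.5-fold in both directions, and for the other 13 the interval reached beyond it.

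Other measures moved with this comparison. Of 19 macrophage markers with a base mean above 50, 13 were higher in HF than in NP at an unadjusted p under 0.05, and none was lower. The sum of 20 such markers was 652 to 829.6 CPM in HF and 493 to 585 CPM in NP, without overlap. None of the macrophage markers was at 0, with means from 2.14 CPM for Trem2 to 142 CPM for Lyz2. Ctss, cathepsin S, is a lysosomal protease of macrophages that is counted with those markers and not with the 36 genes. It was called in HF against NP, with a log2 fold change of 0.95 (SE 0.16, adjusted p = 0.00489 by edgeR's quasi-likelihood test). Cx3cr1, a chemokine receptor of macrophages, had 1.15 (SE 0.23) and an adjusted p of 0.0170 with edgeR. Of 10 cardiomyocyte markers, 4 were lower at an unadjusted p under 0.05, among them Myh6 with −0.70 and Ryr2 with −0.65 on the log2 scale. Of 6 pericyte and smooth muscle markers, 3 were lower, with Myh11 at −1.39 (adjusted p = 0.0341 by edgeR) and Abcc9 at −0.42 having the smallest p, and the sum of 7 such markers was 511 to 646 CPM in HF and 619 to 669 CPM in NP. Of 8 fibroblast markers, 1 was higher, the collagen gene Col3a1 with 0.87 (adjusted p = 0.0217 by edgeR), and their sum was 1721 to 2380.1 CPM in HF and 1647 to 2106 CPM in NP. Of 5 erythroid markers, 1 was higher, Alas2 with 0.78, and of 8 endothelial markers none reached the unadjusted threshold. Mitochondrially encoded genes took 38.1 to 39.8% of the counts in HF and 41.3 to 47.1% in NP. The part of these measures in the differences of Npc1, Ctsz, Gusb, Hexa and Ctsc was not tested.

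**Figure D3:**
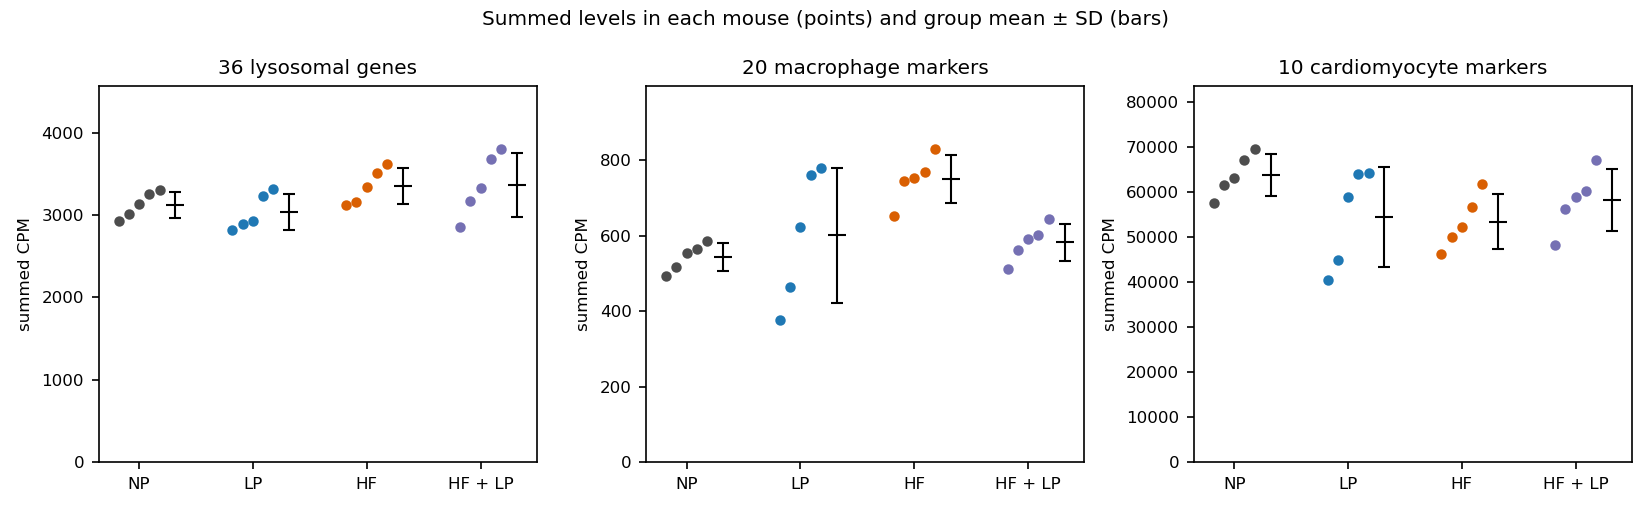
Summed CPM of the 36 lysosomal genes, of 20 macrophage markers and of 10 cardiomyocyte markers in each mouse (points) with the group mean ± SD (bars, n = 5). Macrophage marker sums of HF mice, 652 to 829.6 CPM, lie above those of NP mice, 493 to 585 CPM, while the sums of the lysosomal genes overlap between all diets.

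When protein was restricted under high fat, none of the 36 genes differed between HF + LP and HF at an unadjusted p under 0.05 by edgeR. DESeq2 gave 1, Asah1. Over all genes 0% were called, 2.09% were higher and 2.25% were lower at the unadjusted threshold. Groups of mice overlapped for each of the 35 genes, compared to 1.09% of all genes without overlap. The log2 fold changes lay between −0.73 for Gla and 0.26 for Psap, and the smallest adjusted p was 0.999 with edgeR. The 4 enzymes that were higher in HF than NP had −0.15 for Ctsz, 0.04 for Gusb, −0.13 for Hexa and −0.29 for Ctsc. Npc1 had 0.16 (SE 0.13). HF mice are shared between this comparison and the one with NP, so that a chance deviation of HF mice enters both with opposite sign.

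The median over the 36 genes was −0.06, compared to 0.02 over all genes tested, with 12 genes above 0 and 24 below. It lay between −0.11 and −0.04 when single mice were left out. Proteases had a median of −0.12, with Ctsl at −0.35 (SE 0.20) and Ctsk at −0.36 (SE 0.36). Roles other than the proteases had medians between −0.06 and −0.02. For 27 of the 36 genes the 95% interval lay within 1.5-fold. Of 19 macrophage markers, 5 were lower in HF + LP than in HF at an unadjusted p under 0.05, Ctss among them with −0.48 (adjusted p = 0.580 by edgeR), and their sum was 513 to 645 CPM in HF + LP. Of 6 pericyte and smooth muscle markers, 2 were higher at that threshold, Acta2 with 0.96 and Abcc9 with 0.43. Of 8 fibroblast markers 2 were lower, Col3a1 with −0.55 and Col1a1 with −0.49, and of 8 endothelial markers 1 was lower, Pecam1 with −0.24. Mitochondrially encoded genes took 38.5 to 47.2% of the counts in HF + LP and 38.1 to 39.8% in HF. The part of these measures in the differences of the lysosomal genes was not tested.

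Lamp2, the membrane glycoprotein that the study stained and that is needed for fusion with autophagosomes, lies at chrX:38401357-38456454, minus strand. Its level was 124, 141, 125, 125 and 139.7 CPM in NP, and 129, 115, 158, 146 and 116 CPM in LP. In the other groups it was 136, 131, 152, 158 and 141 CPM in HF, and 126, 149, 121, 145 and 117 CPM in HF + LP. All 4 groups overlapped, and the highest values came from LP 13 and HF 4. Lamp2 had log2 fold changes of 0.13 (SE 0.10) in HF against NP, −0.13 (SE 0.10) in HF + LP against HF, 0.02 (SE 0.10) in LP against NP and −0.01 (SE 0.10) in HF + LP against LP. The 95% interval of HF + LP against HF ran from −0.34 to 0.09, and the intervals of all 4 comparisons lay within 1.5-fold.

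Lamp1, its close relative at chr8:13159161-13175338, plus strand, was measured at 278, 279, 268, 306 and 279 CPM in NP, and 306, 278, 246, 297 and 252 CPM in LP. With high fat the values were 288, 313, 270.5, 325 and 314 CPM in HF, and 282, 328, 244, 356 and 293 CPM in HF + LP. All groups overlapped, and the fitted differences lay between −0.03 in LP against NP and 0.12 in HF + LP against LP on the log2 scale. The 3′ end of Lamp1 overlaps Grtp1, whose base mean of 39.8 is small beside that of Lamp1, 4768. Scarb2, the receptor that carries glucocerebrosidase to lysosomes, had group means from 228 CPM in LP to 249 CPM in HF + LP, and log2 fold changes between −0.07 and 0.13 over the 4 comparisons. Cln3, a membrane protein lost in juvenile Batten disease, lay between −0.19 and 0.08. Npc2, the soluble protein that hands cholesterol to NPC1, had 0.19 (SE 0.17) in HF against NP and 0.28 (SE 0.17) in LP against NP, where Npc1 had negative values. Its highest level, 157 CPM, was that of LP 13, and without LP 13 the value in LP against NP was 0.036.

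Mcoln1, the calcium channel of lysosomes, lies at chr8:3500457-3515232, plus strand. It was measured at 4.15, 5.42, 3.94, 4.66 and 3.87 CPM in NP, and 4.23, 3.69, 3.34, 5.13 and 2.62 CPM in LP. On high-fat diets it was 3.82, 4.19, 3.71, 3.63 and 3.71 CPM in HF, and 4.17, 4.22, 2.97, 3.63 and 3.28 CPM in HF + LP. The values of all groups overlapped, and the counts behind them were 51 or more in each library. Log2 fold changes were −0.21 (SE 0.16) in HF against NP and −0.23 (SE 0.16) in LP against NP, neither at an unadjusted p under 0.05 with edgeR. The former was −0.13 without NP 4 and −0.26 without NP 8, and the latter was −0.11 without LP 20.

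Tfeb, at chr17:47737030-47792419, plus strand, had levels of 8.82, 7.67, 9.66, 10.3 and 9.20 CPM in NP, and 9.72, 7.31, 6.23, 8.54 and 6.26 CPM in LP. In HF and HF + LP hearts the levels were 10.8, 8.62, 8.29, 8.66 and 8.59 CPM in HF, and 8.72, 9.88, 7.23, 7.46 and 10.5 CPM in HF + LP. The 2 lowest mice were LP 13 and LP 20, and the highest was HF 1. Tfeb had a log2 fold change of −0.03 (SE 0.14) in HF against NP and −0.04 (SE 0.14) in HF + LP against HF. In LP against NP it was −0.27 (SE 0.14, unadjusted p = 0.0701, adjusted p = 0.722) with edgeR, and in HF + LP against LP 0.21 (SE 0.14). Transcript levels do not measure whether the protein is in the nucleus.

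Protein restriction without high fat left 1 of 35 genes at an unadjusted p under 0.05 in LP against NP by edgeR, Npc1, which was lower, and DESeq2 gave the same count of 1. Over all genes 0% were called, 3.29% were higher and 2.58% were lower at this threshold. Npc1 had a group mean of 31.1 ± 5.65 CPM in LP (SD, n = 5) and a log2 fold change of −0.35 (SE 0.13, unadjusted p = 0.0126, adjusted p = 0.592) by edgeR. The NP mice are shared with the HF comparison, so the negative values in both are not independent. No gene separated LP from NP mice without overlap, compared to 0.615% of all genes. The median over the 36 genes was 0.01, against 0.02 over all genes tested, with 19 above 0 and 17 below, and 28 intervals lay within 1.5-fold. The median turned to −0.12 without the 6 libraries with atrial transcripts and to −0.16 with the animal number as a replicate block. The numbers of NP 6, NP 8, LP 13, LP 15 and LP 20 occur on no other diet, so the block absorbs these mice. LP values of any fit with this block thus rest on LP 2 and LP 5. With the next smallest unadjusted p, none under 0.05, Ctsl had 0.41 (SE 0.20), Atp6v1h 0.25 (SE 0.13) and Tfeb −0.27. Without both LP 13 and LP 20, these values were 0.14 for Ctsl, 0.17 for Atp6v1h and −0.10 for Tfeb. Lgmn had 0.23 (SE 0.35), and −0.13 without LP 13. Atp6ap1, an accessory subunit of the proton pump, had −0.20 (SE 0.13) and so the opposite sign of Atp6v1h, a regulatory subunit of the same pump. Markers of other cells that were higher in LP at the unadjusted threshold were Trbc2 with 6.09 and Ighm with 1.92 of T and B cells, Plin1 of adipocytes with 3.58, the leukocyte gene Ptprc with 1.57 and the globin gene Hbb-bs with 0.75, and Mb, the myoglobin gene, was lower with −0.34. LP 20 held 548 CPM of T and B cell markers against 10.6 to 38.4 CPM in the other 4 LP mice, and LP 13 and LP 20 held 304 and 141 CPM of adipocyte markers against 4.72 to 7.45 CPM in the other 3. Npc1 without these 2 libraries had −0.46 (unadjusted p = 0.00472 by edgeR), and −0.64 with the animal number as a replicate block.

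High fat under protein restriction left 1 gene higher, Ctsd, and 1 lower, Ctsl, in HF + LP against LP at an unadjusted p under 0.05 by edgeR, and DESeq2 gave 2. Over all genes 0.139% were called, 7.75% were higher and 7.96% were lower at the unadjusted threshold. No gene separated the groups of mice, compared to 1.89% of all genes. The median over the 36 genes was −0.01, against −0.03 over all genes tested, with 18 above 0 and 18 below, and 28 intervals lay within 1.5-fold. It turned to 0.12 without the libraries with atrial transcripts and to 0.14 with the replicate block. At the unadjusted threshold, 3 of 3 adipocyte markers and 2 of 2 T and B cell markers with a base mean above 50 were lower in HF + LP than in LP, and LP 13 and LP 20 held most of the summed CPM of both lists among the LP mice. Also lower was Myh11 of smooth muscle with −1.68 (adjusted p = 0.0213 by edgeR), while 3 of 19 macrophage markers were higher and 1 lower. Of 10 cardiomyocyte markers, Myh6 was lower with −0.40 and Mb higher with 0.34, and of 8 endothelial markers Egfl7 was higher with 0.35.

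Ctsd, encoded at chr7:142375911-142388038, minus strand, was measured at 752, 826, 713, 895 and 724 CPM in NP, and 892, 779, 589.9, 806 and 619.9 CPM in LP. In the high-fat groups its level was 863, 1072, 701, 951 and 861 CPM in HF, and 817, 1037, 747, 919 and 1082 CPM in HF + LP. LP 13 and LP 20 were the 2 lowest mice, and the ranges of all diets overlapped. The log2 fold change of HF + LP against LP was 0.32 (SE 0.14, unadjusted p = 0.0296, adjusted p = 0.258) by edgeR. Without LP 13 it was 0.24 with an unadjusted p of 0.0906, without LP 20 0.25 with 0.0882, and without both 0.15 with 0.302 in the edgeR fit. It also rested on HF + LP 2 and HF + LP 5, without which the unadjusted p was 0.0747 and 0.0881. Ctsd had 0.26 with the replicate block (unadjusted p = 0.116 by edgeR) and 0.32 with only the groups compared (unadjusted p = 0.0615). In HF against NP, Ctsd had 0.19 (SE 0.14), which was 0.11 without HF 2 and 0.26 without HF 3.

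Ctsl, cathepsin L, a cysteine protease encoded at chr13:64359337-64370890, minus strand, was measured at 61.3, 95.2, 80.3, 71.6 and 90.8 CPM in NP, and 94.9, 80.3, 123, 88.3 and 142 CPM in LP. In HF and HF + LP mice it was 84.3, 64.7, 123, 93.6 and 132 CPM in HF, and 82.9, 88.8, 90.8, 73.8 and 55.1 CPM in HF + LP. LP 20 was the highest of all mice, HF 5, LP 13 and HF 3 followed, and HF + LP 5 was the lowest. The log2 fold change of HF + LP against LP was −0.44 (SE 0.20, unadjusted p = 0.0385, adjusted p = 0.286) with edgeR. Without LP 20 it was −0.31 with an unadjusted p of 0.128, without LP 13 −0.38 with 0.0818, and without both −0.17 with 0.401 in the edgeR fit. Leaving out HF + LP 4 or HF + LP 5 gave an unadjusted p of 0.0690 or 0.112. Ctsl had −0.21 with the animal number as a replicate block (unadjusted p = 0.521 by edgeR), −0.43 with the library number as a factor (unadjusted p = 0.0542) and −0.50 without the libraries with atrial transcripts (unadjusted p = 0.0622). The 2 LP libraries are those with adipocyte and lymphocyte transcripts described above, and the part of other cells in these values was not tested.

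The interaction asks whether protein restriction acted differently under high fat, as the difference between HF + LP against HF and LP against NP. It gave 1 gene with a positive and 1 with a negative value at an unadjusted p under 0.05 by edgeR, and DESeq2 gave 2. Over all genes 0% were called, 3.17% were higher and 2.9% were lower. Npc1 had an interaction of 0.51 (SE 0.18, unadjusted p = 0.00982, adjusted p = 0.644) and Ctsl of −0.75 (SE 0.28, unadjusted p = 0.0133, adjusted p = 0.668) on the log2 scale in the edgeR model. With the replicate block the interaction was 0.81 for Npc1 and −0.58 for Ctsl, the latter at an unadjusted p of 0.186 by edgeR. At the unadjusted threshold 3 macrophage markers, Ctss, Ptprc and C1qb, had a negative interaction, as had 3 of 3 adipocyte and 2 of 2 T and B cell markers, while Tnnt2 and Pln of cardiomyocytes had positive values of 0.44 and 0.34. The fibroblast marker Col3a1 had −0.62 and the pericyte marker Abcc9 0.50. Without LP 13 and LP 20 the interaction of Ctsl was −0.49 with an unadjusted p of 0.0840 in the same model. The median over the 36 genes was −0.08, against −0.01 over all genes tested, with 12 above 0 and 24 below. Its sign turned without the libraries with atrial transcripts, to 0.045, and with the replicate block, to 0.095. The precision was lower than in the other comparisons, with 18 of 36 intervals within 1.5-fold.

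**Figure D4:**
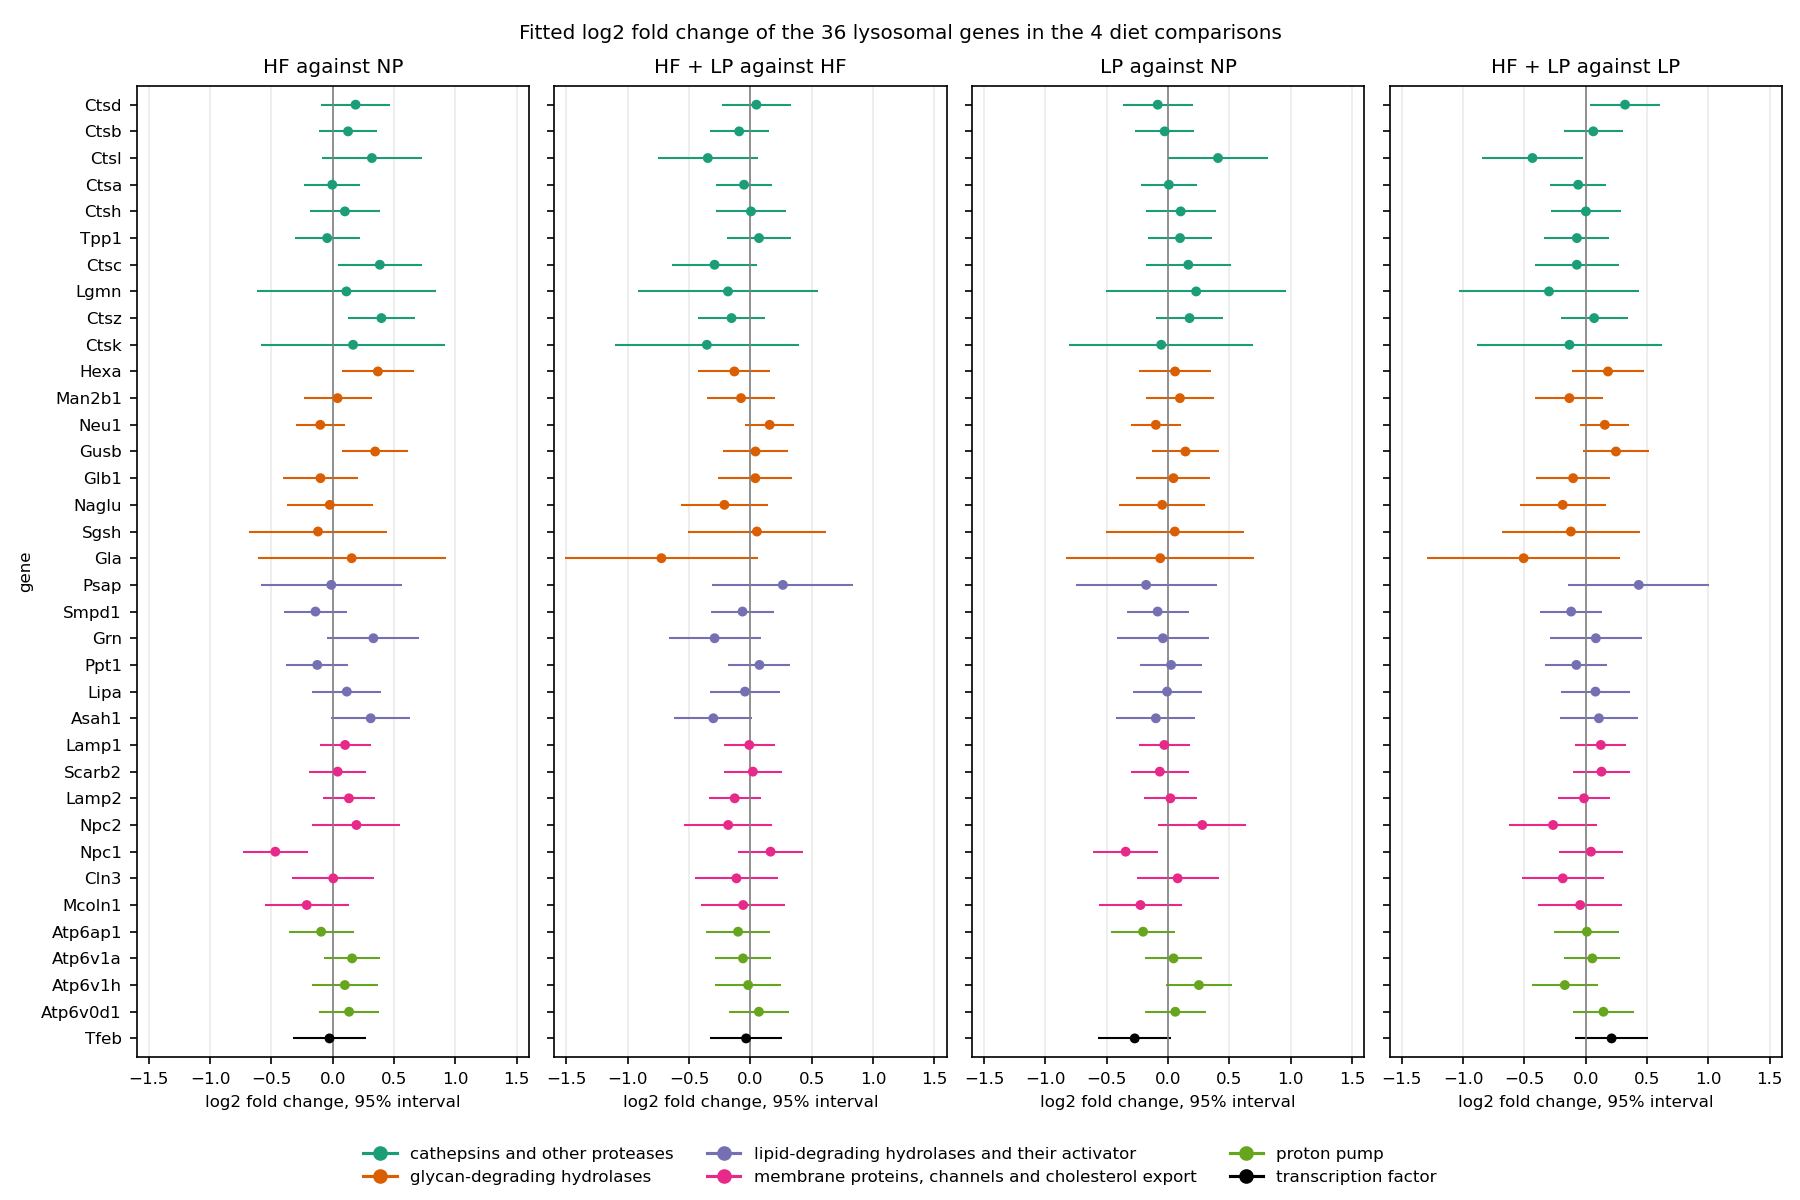
Log2 fold change of each of the 36 genes in the 4 diet comparisons, with lines for the 95% interval of the edgeR fit and colors for the role of the gene. In HF against NP the intervals of Npc1, Ctsz, Gusb, Hexa and Ctsc do not include 0, in LP against NP that of Npc1, and in HF + LP against LP those of Ctsd and Ctsl, before adjustment for multiple tests.

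Psap, the second most abundant gene, lies at chr10:60277627-60302597, plus strand. Its level was 427, 481, 504, 459 and 493 CPM in NP, and 601, 403, 169, 407 and 507 CPM in LP. On high-fat diets it was 375, 251, 464, 603 and 650.3 CPM in HF, and 579.6, 565, 420.3, 846 and 405 CPM in HF + LP. LP 13 and HF 2 were the 2 lowest mice and HF + LP 4 the highest, a range from 169 to 845.6 CPM, and all diets overlapped. Log2 fold changes lay between −0.18 (SE 0.28) in LP against NP and 0.43 (SE 0.28) in HF + LP against LP, and none had an unadjusted p under 0.05 with edgeR. Without LP 13 the value of Psap in LP against NP was 0.016 and that in HF + LP against LP 0.23, and without HF + LP 4 the latter was 0.24.

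Ctsk, cathepsin K, a collagen-degrading protease at chr3:95499256-95509362, plus strand, was measured at 3.31, 4.99, 2.94, 2.53 and 3.60 CPM in NP, and 2.117, 1.51, 6.97, 3.27 and 2.54 CPM in LP. With high fat it was 4.64, 2.25, 4.32, 4.10 and 4.07 CPM in HF, and 1.90, 5.10, 4.03, 2.44 and 1.701 CPM in HF + LP. LP 5 was the lowest mouse and LP 13 the highest, so that the LP group spanned the range of all mice. The 95% interval of HF against NP ran from −0.58 to 0.92 on the log2 scale. Gla, at chrX:134588149-134601125, minus strand, had 1.103, 0.352, 1.08, 1.37 and 1.000 CPM in NP, and 0.627, 0.907, 0.927, 1.19 and 1.06 CPM in LP. In the high-fat groups it had 1.498, 1.79, 0.618, 1.09 and 0.633 CPM in HF, and 1.17, 0.693, 0.392, 0.396 and 0.668 CPM in HF + LP. These levels rest on as few as 5 counts in a library, and the 95% interval of HF + LP against HF ran from −1.51 to 0.06, a wide range at this depth and number of mice.

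The remaining enzymes overlapped between the diets of each comparison. Ctsb, an abundant cysteine protease with a mean of 227 CPM, had log2 fold changes between −0.09 and 0.12 over the 4 comparisons. Ctsa, with 52.6 CPM, lay between −0.06 and 0.01, and the aminopeptidase Ctsh, with 49.4 CPM, between 0.00 and 0.10. Tpp1, a tripeptidyl peptidase, had a mean of 47.3 CPM and values between −0.07 and 0.10. Lgmn was highest in LP 13 with 36.5 CPM and lowest in HF + LP 5 with 6.81 CPM.

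Among the glycan-degrading hydrolases, the β-galactosidase Glb1 had a mean of 10.3 CPM and log2 fold changes between −0.10 and 0.04. Man2b1, with 26.3 CPM, lay between −0.13 and 0.10. Naglu, which acts on heparan sulfate, had 7.90 CPM and values between −0.21 and −0.02. Sgsh had 4.55 CPM and values between −0.12 and 0.05. Neu1, with 16.3 CPM and the smallest spread, lay between −0.10 and 0.16. None of these hydrolases had an unadjusted p under 0.05 in any of the 4 comparisons with edgeR.

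The wider lysosomal system was examined in 5 further lists. Of 35 other lysosomal hydrolases with a base mean above 50, none was called, and 1 was lower in HF against NP at an unadjusted p under 0.05, Hyal1, a hyaluronidase, with −0.38 (adjusted p = 0.287 by edgeR). In HF + LP against LP 2 of them were lower, Ppt2, a thioesterase, with −0.34 (adjusted p = 0.181 by edgeR) and Hyal1 with −0.34 (adjusted p = 0.297). Of 12 other V-ATPase subunits, none reached that threshold in HF against NP, and their median log2 fold change was 0.07. Among them Atp6v1e1 was higher in HF + LP against LP with 0.31 and Atp6v0e2 lower with −0.57, with adjusted p of 0.233 and 0.205 by edgeR. Of 31 other membrane proteins and transporters, 2 were higher in HF against NP at the unadjusted threshold. Litaf, an endosomal and lysosomal membrane protein, had 0.51 (adjusted p = 0.0838 by edgeR) and Laptm4a 0.23 (adjusted p = 0.359). Litaf was lower in HF + LP against HF with −0.34 (unadjusted p = 0.0288, adjusted p = 0.873 by edgeR), a comparison that shares the HF mice, and its interaction was −0.54 (unadjusted p = 0.0168, adjusted p = 0.683). The amino acid transporter Slc38a9 was higher in HF + LP against HF with 0.22 (adjusted p = 0.940 by edgeR). Of the 31, 1 was higher and 5 were lower in HF + LP against LP at this threshold, Laptm4a with 0.37 and the ion channel Tpcn1 with −0.38 having the smallest p.

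Of 23 genes for delivery to the lysosome, 2 were lower in HF against NP at an unadjusted p under 0.05, the sorting adaptor Gga2 with −0.34 (adjusted p = 0.119 by edgeR) and the tethering subunit Vps39 with −0.36 (adjusted p = 0.263). Gga2 was also lower in LP against NP with −0.26 (adjusted p = 0.635 by edgeR), a comparison that shares the NP mice. Of 21 genes for nutrient sensing at the lysosome and related transcription factors, 2 were lower in HF against NP at the unadjusted threshold. Rptor, the scaffold subunit of mTORC1, had a log2 fold change of −0.43 (SE 0.11, adjusted p = 0.0455 by edgeR) and Mtor, its kinase, −0.23 (adjusted p = 0.368). Of the 21, 3 were higher and 1 lower in HF + LP against LP at the unadjusted threshold, with Lamtor4 at 0.41 and Lamtor2 at 0.30, both parts of the Ragulator complex that anchors mTORC1 to lysosomes. None of the genes in these 5 lists was called in any comparison by edgeR. Dnase2a, the gene of DNase II, a nuclease whose protein the study measured, belongs to the list of other hydrolases and was named for that reason after its values were seen. It had log2 fold changes of −0.08 in HF against NP (unadjusted p = 0.563, adjusted p = 0.880 by edgeR) and 0.01 in HF + LP against HF (unadjusted p = 0.937). The study reports the protein as reduced in HF and increased in HF + LP. Transcript and protein are unlike measures, and these values do not test the protein result.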

How the data were processed

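The authors prepared QuantSeq 3′ mRNA libraries from left ventricular RNA, sequenced them on a NextSeq instrument and used BlueBee software for alignment. The authors deposited 1 count per Ensembl gene for each mouse, as raw reads without normalization. The submitters' processing notes name GRCm38 and DESeq2 1.22.2. The counting program, its strand setting and the annotation are not given in the sources used here. Every listed gene has at least 60 counts in all.

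The counts were analyzed with edgeR 4.0.16 under R 4.3.3. The function filterByExpr kept 13991 genes, counts were scaled by TMM, and a quasi-likelihood model with 4 groups was fitted to all 20 libraries. DESeq2 1.42.0 was an alternative. Benjamini-Hochberg adjustment of the p-values covered all genes tested. Mice were grouped by their labels. The p-values rest on the spread between mice of the same diet, estimated jointly over all 4 diets. Symbols were found for 15917 genes. Coordinates are those of GENCODE M21, and promoters those of RefSeq on GRCm38.p6. Gene starts differ between these sources, which share a build, and no coordinates were converted.

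The 36 genes, the other lists and the tests were chosen with earlier results of these data known. Described mouse by mouse were called genes, up to 3 genes per direction and comparison with the smallest unadjusted p under 0.05, the 3 highest and 3 lowest by level, Lamp2 and Tfeb. From the other lysosomal lists, called genes and up to 2 genes per comparison with the smallest unadjusted p under 0.05 were named. Marker lists are given by counts, with only some of the genes that this rule would name, and genes named outside this rule were chosen after their values were seen.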

Additional observations from a re-analysis of the deposited data

Results flagged for a closer look

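In groups of 5 mice, the level of a gene was examined for a single mouse whose gap to its nearest neighbor took up an unusual part of the group's range, by Dixon's test. Of 144 combinations of gene and diet, 6 passed the critical value (4.17%), and chance passes about 1 in 20. Lamp1 was highest in NP 6 with 306 CPM, 279 CPM being the next. Grn was lowest in NP 3 with 61.4 CPM, against 103 CPM. Lgmn was highest in LP 13 with 36.5 CPM, against 18.4 CPM. Ctsk was lowest in HF 2 with 2.25 CPM, against 4.07 CPM. Tfeb was highest in HF 1 with 10.8 CPM, against 8.66 CPM. Sgsh was highest in HF + LP 2 with 6.74 CPM, against 4.38 CPM. None of the 36 genes had an interaction of fat and protein content that passed the adjusted threshold with edgeR, and 2 had an unadjusted p under 0.05.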

How the results depend on the processing

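No gene of the 36 was called under any alternative, namely RLE size factors, DESeq2, no filter or a filter of 10 counts in every library, a threshold of 0.05 for the adjusted p, only the groups compared, the first number of the library name as a factor, the animal number as a block, each mouse left out, and 2 exclusions of libraries. Medians stayed within the spread between mice in 98 alternatives and moved beyond it in 6. The number of all genes called was less stable. In HF against NP it was 37, but 163 with DESeq2, 157 at an adjusted p under 0.05, 61 with only the groups compared, 76 without LP 13 and LP 20, 2 with the block, and 20 to 32 when single mice were left out. In HF + LP against LP it was 14, but 84 with DESeq2, 44 at an adjusted p under 0.05, 5 with the library number, 4 without LP 13 and LP 20, 2 without the 6 libraries with atrial transcripts, 0 with only the groups compared or the block, and 1 to 16 when single mice were left out. In HF + LP against HF it was 0, but 16 with DESeq2, 18 without the libraries with atrial transcripts and 1 without HF 1. With DESeq2 it was 4 in place of 0 in LP against NP and 1 in place of 0 in the interaction. The last exclusion and that of LP 13 and LP 20 were chosen after the data had been seen.

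Counts of the 36 genes at an unadjusted p under 0.05 moved as follows, and the causes were not tested. In HF + LP against HF, 1 gene was lower with DESeq2, with only the groups compared and without LP 13 and LP 20, and 0 to 2 when single mice were left out. In LP against NP, 1 gene was higher with the filter of 10 counts and 2 with only the groups compared, and single mice gave 0 to 2 higher and 1 to 3 lower. In HF + LP against LP, 0 were higher with only the groups compared and 3 without the libraries with atrial transcripts, and 0 were lower with the library number, without LP 13 and LP 20 and without the atrial libraries. Single mice gave 0 to 3 higher and 0 to 2 lower there, and 1 to 2 higher and 1 to 3 lower in the interaction. The interaction had 2 lower genes with the library number and without the atrial libraries. Without the atrial libraries, which left 4 NP, 3 LP, 3 HF and 4 HF + LP mice, the median log2 fold change was −0.12 in LP against NP, 0.12 in HF + LP against LP and 0.045 in the interaction, and the unadjusted p of Gusb in HF against NP was 0.0646 with edgeR.

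Mice that share a number across diets are not the same animal. The deviations of same-numbered mice correlated at −0.48 to 0.13 over 3 pairs of HF and NP and at −0.56 to 0.48 over 5 pairs of HF + LP and HF. For LP and NP 1 pair gave 0.20, and for HF + LP and LP 2 pairs gave −0.02 and 0.37, so the numbers were not taken to pair them. A block by animal number absorbs NP 6, NP 8, LP 13, LP 15 and LP 20, whose numbers occur on no other diet. Its LP values rest on LP 2 and LP 5. With this block, 2 genes were lower in HF + LP against HF, 2 higher and 0 lower in HF + LP against LP, and 0 lower in the interaction. The medians with the block were −0.16 in LP against NP, 0.14 in HF + LP against LP and 0.095 in the interaction. Npc1 in HF against NP kept an unadjusted p under 0.05 in all 9 other settings and all 10 fits without a single mouse, with a range from −0.54 to −0.39. In LP against NP the range of Npc1 was −0.64 to −0.25, and in the interaction 0.42 to 0.81, all at an unadjusted p under 0.05. Ctsz did so too, with 0.33 to 0.53, whereas Hexa reached 0.0516 without NP 8. Library totals without mitochondrially encoded genes raised the CPM of all 36 genes by more than the spread between mice. Depth limits Gla most, with 5 counts in its lowest library.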
